A study of Mus musculus with 16 samples.

Results

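The diet response of female liver was described by comparing the 4 libraries from female mice on a high fat diet with the 4 from female mice on a normal diet, 8 of the 16 libraries of the series. All expressed genes entered the comparison: 14781 of 78317 listed genes passed the filter on low counts. The mice were wild type (genotype wt) C57BL/6J, an inbred laboratory strain, arrived aged 6 weeks and then ate their diet for 10 weeks. The normal diet was LabDiet 5053, with 4.5% of calories from fat, and the high fat diet was Research Diets D12492, with 60% of calories from fat. The diets came from different makers, so that fat cannot be told apart from the other ingredients in which they may differ. The 8 male libraries of the series, 4 per diet, served for the estimate of spread and for the test of whether a change differed between the sexes. Each library was made from poly(A) RNA of powdered whole liver, and the labels give 1 batch number to all. The labels do not say whether a library came from 1 animal, so p-values measure the spread between these libraries. The hour of tissue collection is not given in the sources used here.

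The liver takes up dietary fat and sugar, makes cholesterol, lipoproteins and bile acids, and clears drugs and steroids. Sterol synthesis is under feedback: when the endoplasmic reticulum membrane holds enough cholesterol, the transcription factor SREBP2 stays uncut and the enzymes of the pathway are transcribed less. Hepatocytes make up most of the tissue, and Kupffer cells, recruited macrophages, stellate cells and endothelium line the sinusoids between them. Interferons, which cells release in response to microbes and to other stimuli, act through STAT and IRF transcription factors on a shared set of defence and antigen presentation genes.

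Total expected counts ranged from 22682339 to 29200728 in the high fat libraries and from 27566339 to 41420589 in the normal diet libraries. Albumin, the main hepatocyte transcript, took 7.39% to 8.75% of counts on the high fat diet and 8.4% to 9.17% on the normal diet, so that this marker of the labelled tissue was high in all 8. High fat library 1 stood apart from its group. Its chi-square statistic per gene against the other high fat libraries was 75.5 to 93.6, compared with 20.9 to 48.6 among the other 3 and 24.2 to 54.6 among the normal diet libraries. With genes in quintiles of transcript length, the shortest quintile lay above the normal diet mean in it (median log2 difference 0.16) and the longest below (-0.28). In the other 3 high fat libraries the shortest lay at -0.15 to -0.10 and the longest at 0.03 to 0.17. The part of this in the results was not tested. High fat libraries 1 and 4 also had the highest list medians in interferon, antigen presentation and recruited macrophage genes, though not both in resident Kupffer cell markers, and those results are therefore given without them too.

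Expression is given as CPM, the count of a gene as a share of the library size after TMM scaling (trimmed mean of M values), and 4 values in a row are replicates 1 to 4. A gene was called when the adjusted p of edgeR's quasi-likelihood test, fitted to all 16 libraries, was under 0.05. Fold changes are log2 values, high fat minus normal diet, each followed by a standard error (SE). The SE was not estimated separately but derived from the fold change and its statistic in that test. It can be unreliable where a change is close to no difference. In females 1700 of the 14781 genes were called, 11.5% of those tested, with 848 higher (5.74%) and 852 lower (5.76%). Without high fat library 4 there were 947 calls, without normal diet library 1, 2 or 4 there were 1021, 1062 and 1074, and without high fat libraries 1 and 4 together 456. Of the calls, 1203 changed less than 2-fold. The libraries of the diets did not overlap in 2700 genes (18.3%), 1288 of them higher (8.71%) and 1412 lower (9.55%). The balance of directions rested on the scaling: on the scale of the deposited transcript abundances, log2(TPM + 1), the median gene lay 0.15 above that of the TMM fit and 2644 of 2926 calls were higher. With upper quartile scaling the median shifted by 0.09 and 1336 of 1903 calls were higher. Small changes of many genes in 1 direction are therefore given below with their value on the TPM scale. The TMM factors were 1.05 to 1.13 in the high fat libraries and 0.94 to 0.99 in the normal diet libraries. A higher factor lowers every CPM of its library, so differences of summed CPM also rest on the scaling.

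The 57 gene lists hold 1181 different genes of metabolic pathways, regulatory programmes and cell types. The share of members called varied widely between lists, from 18 of 20 cholesterol synthesis enzymes and 20 of 24 interferon gamma GTPases and regulators to none of 72 cytosolic ribosomal proteins.

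**Figure D1:**
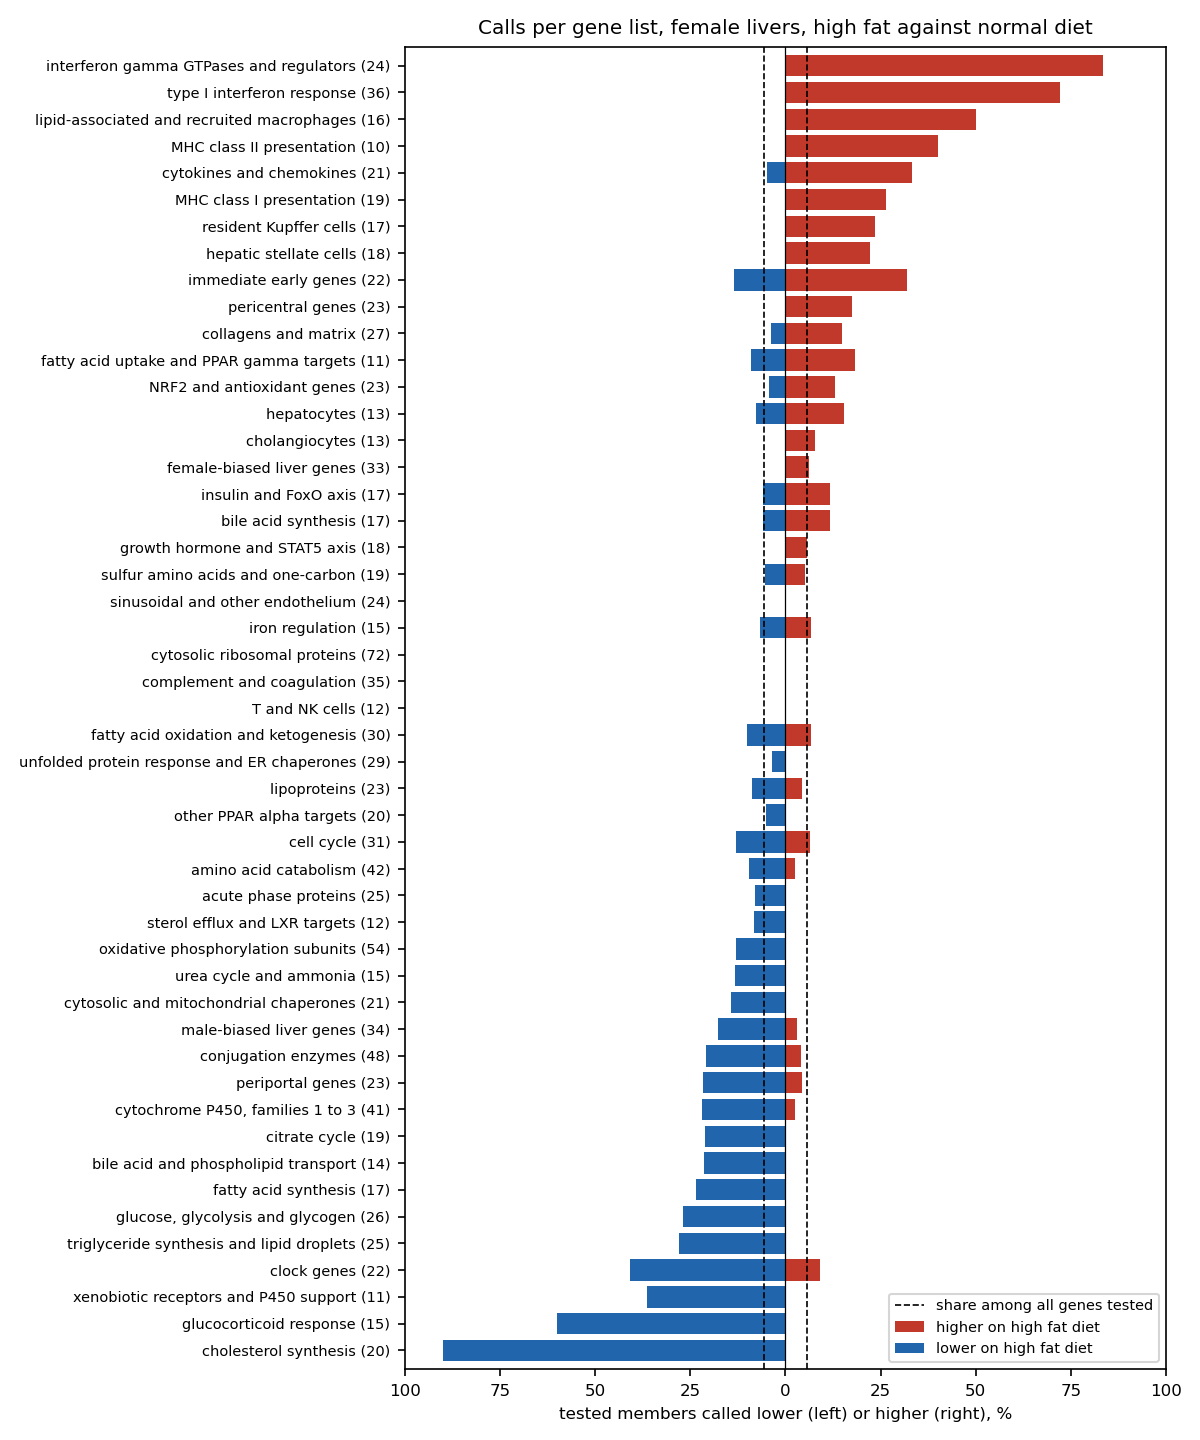
Horizontal bars give the percentage of tested members of each gene list (number tested in parentheses) that were called lower (blue, left) or higher (red, right) on the high fat diet in female livers; dashed lines mark the shares among all 14781 genes, 5.76% lower and 5.74% higher. Among the lists shown, those with 10 or more tested members, cholesterol synthesis and glucocorticoid response reach farthest to the left and the interferon lists farthest to the right.

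All enzymes of cholesterol synthesis, from acetyl-CoA onwards, had a lower mean on the high fat diet, and 18 of 20 fell (median log2 fold change -1.21, against 0.00 for all genes tested). The diets did not overlap in 18 of the 20, against 9.55% of all genes in that direction. On the TPM scale the median was -0.92 and 16 fell. Sqle, which oxidises squalene in the first oxygen-requiring step, had 9, 15, 31 and 13.7 CPM on the high fat diet and 89.6, 54, 98.7 and 106 CPM on the normal diet (-2.35 ± 0.42, adjusted p = 0.004). Idi1, an isomerase of the isoprenoid branch, had 70.2, 89.8, 183 and 61.6 CPM on the high fat diet and 610.4, 289.7, 568 and 559.8 CPM on the normal diet (-2.33 ± 0.32, adjusted p = 3.6e-04). In both enzymes high fat library 3 was the highest of its group and normal diet library 2 the lowest of the other, without overlap. Dhcr7, which performs the last reduction to cholesterol, fell from 65.5, 48.3, 72.7 and 58.7 CPM to 24.4, 20.3, 31.3 and 30.6 CPM (-1.20 ± 0.14, adjusted p = 5.7e-05). The lanosterol demethylase Cyp51 (-1.99 ± 0.28), the sterol oxidase Msmo1 (-1.73 ± 0.21) and the kinase Pmvk (-1.21 ± 0.18) fell as well. The exceptions were Sc5d (-0.26 ± 0.12, adjusted p = 0.172) and Ebp (-0.26 ± 0.10, adjusted p = 0.0905), which were not called. With 1 library left out at a time, 14 to 18 enzymes were called, and 10 without high fat libraries 1 and 4.

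**Figure D2:**
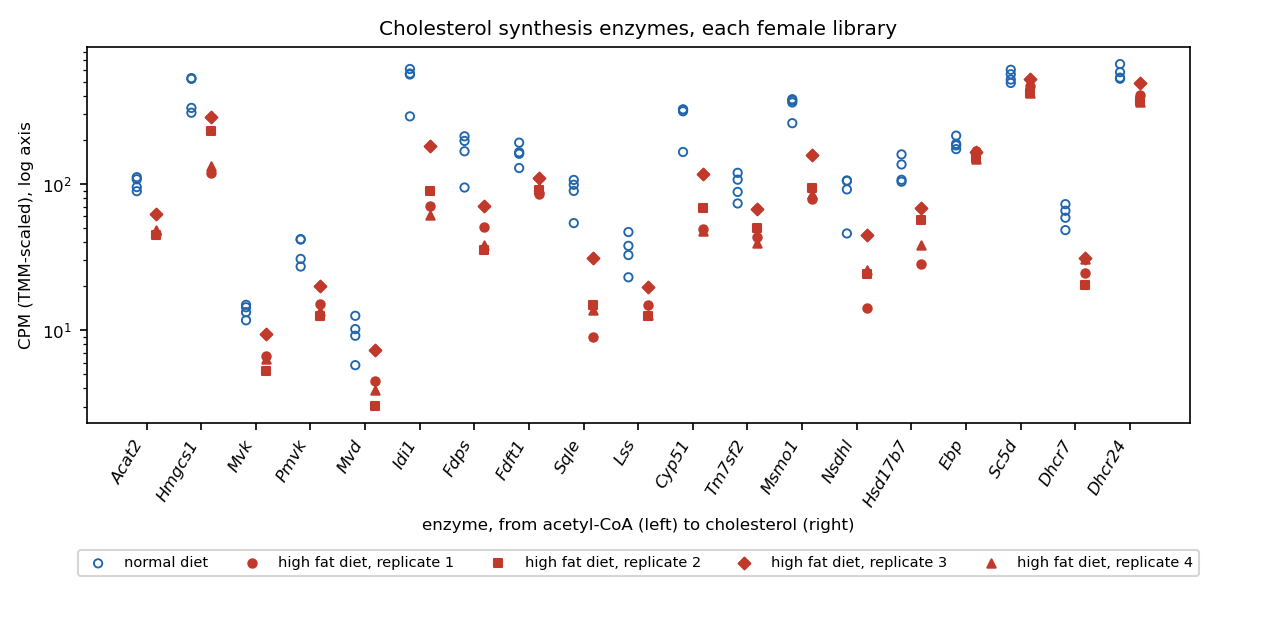
Points are CPM (TMM-scaled, log axis) of 19 of the 20 cholesterol synthesis enzymes in each female library, ordered along the pathway, with open blue circles for the normal diet and filled red symbols for the 4 high fat replicates. High fat values lie below normal diet values for nearly every enzyme, with high fat replicate 3 usually the highest red symbol and Sc5d the closest pair of groups.

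Promoter windows are shown because these enzymes moved together. RefSeq (GRCm38.p6, which is not the build GRCm39 named in the submitters' processing notes) gave 18 windows of 250 bases upstream of a start for 15 of the 20 enzymes. The letters CCAAT, the core of the NF-Y element that accompanies SREBP sites in many sterol genes, occurred on either strand in 14 of the 18 windows (77.8%) and in 33.8% of all 32851 windows. A literal sterol element, TCACNCCAC on either strand, occurred in 1 window, that of Hmgcs1, and in 1.05% of all windows. Capitals mark CCAAT or its complement in Hmgcs1 (HMG-CoA synthase, 119.7, 229, 285 and 133 against 331, 307, 529 and 522 CPM), Idi1 and Msmo1. These are matches of letters and no measurement of binding.
Hmgcs1, chr13:119690101-119690350, plus strand: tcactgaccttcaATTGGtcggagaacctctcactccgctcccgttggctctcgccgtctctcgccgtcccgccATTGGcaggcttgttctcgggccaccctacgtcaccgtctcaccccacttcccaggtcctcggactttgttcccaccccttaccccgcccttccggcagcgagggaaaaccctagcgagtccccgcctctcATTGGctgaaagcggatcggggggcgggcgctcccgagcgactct
Idi1, chr13:8885356-8885605, plus strand: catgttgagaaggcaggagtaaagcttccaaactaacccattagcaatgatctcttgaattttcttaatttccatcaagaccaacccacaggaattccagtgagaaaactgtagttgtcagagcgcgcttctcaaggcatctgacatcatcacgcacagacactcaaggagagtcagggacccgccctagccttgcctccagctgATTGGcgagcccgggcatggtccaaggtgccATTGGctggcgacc
Msmo1, chr8:64733579-64733828, minus strand: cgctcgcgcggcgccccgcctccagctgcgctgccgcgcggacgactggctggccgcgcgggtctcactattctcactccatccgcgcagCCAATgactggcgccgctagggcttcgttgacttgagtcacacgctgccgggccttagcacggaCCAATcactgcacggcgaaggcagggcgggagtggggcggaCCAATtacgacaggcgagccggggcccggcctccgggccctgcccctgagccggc

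Of 9 regulators of sterol sensing and uptake of low density lipoprotein (LDL), 3 fell (on the TPM scale 2 fell and 1 rose). Insig1, which holds the SREBP complex in the endoplasmic reticulum, fell (210.4 to 225 against 301 to 359 CPM on the normal diet, -0.58 ± 0.10, adjusted p = 0.00119). Srebf2, the gene of SREBP2 itself, was called with overlapping groups (-0.42 ± 0.13, adjusted p = 0.0448). Leaving out 1 library ended the call of Srebf2 without high fat library 1, 2 or 4 or normal diet library 3 or 4.

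Among 17 tested genes of fatty acid synthesis, 4 fell and none rose (median -0.53, and -0.29 on the TPM scale, where 2 fell and 1 rose). These were Acss2, which activates acetate, Acacb, the mitochondrial acetyl-CoA carboxylase, Acly, which makes cytosolic acetyl-CoA from citrate, and Me1, a source of NADPH. Acss2 had 53.4, 67.9, 89.8 and 93 CPM on the high fat diet and 182, 120.1, 208 and 126 CPM on the normal diet (-1.06 ± 0.22, adjusted p = 0.00553), without overlap. Acacb had 31.5, 35, 39 and 24.7 CPM on the high fat diet and 53.2, 46.5, 85.5 and 68.4 CPM on the normal diet (-0.96 ± 0.21, adjusted p = 0.00867), again without overlap. Scd1, the stearoyl-CoA desaturase, varied widely within both diets and was not called, with 4473, 3429.6, 4734 and 1683 CPM on the high fat diet and 2026, 2266, 6357 and 2338 CPM on the normal diet (0.14 ± 0.92, adjusted p = 0.944). Its lowest value was in a high fat library and its highest in a normal diet library. The count of falls was 2 without normal diet library 3 and 0 without high fat libraries 1 and 4. Calls that a single library ended were those of Acly without normal diet library 3 and for Me1 without high fat library 1, 2 or 4 or normal diet library 2, 3 or 4.

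Genes that store and release triglyceride fell in 7 of 25 cases and rose in none, although the list's median of -0.20 became 0.02 on the TPM scale, where 3 fell and 3 rose. The lipins, which dephosphorylate phosphatidate to diacylglycerol, stood at the head. Without high fat libraries 1 and 4 there were 4 falls. Lpin1 had 25.8, 36.5, 27.5 and 37.1 CPM on the high fat diet and 322, 217, 249.5 and 433 CPM on the normal diet (-3.27 ± 0.29, adjusted p = 1.2e-05), with a wide gap between the diets. Lpin2 fell (116 to 188 against 291 to 486 CPM on the normal diet, -1.34 ± 0.18, adjusted p = 1.7e-04). The lipase Pnpla2, which opens triglyceride hydrolysis, fell to 51.2, 36.6, 38 and 49 CPM from 59.1, 68.2, 66.9 and 66.9 CPM (-0.58 ± 0.13, adjusted p = 0.00713). The droplet coat proteins Plin5 (-1.02 ± 0.24) and Plin4 (-1.60 ± 0.41) and the acyltransferase Gpat4 (-0.58 ± 0.13) fell without overlap. Plin2, the main hepatocyte droplet coat, was not called (0.15 ± 0.20, adjusted p = 0.666), with 545, 381, 420.1 and 312 CPM on the high fat diet and 225, 394, 477 and 393 CPM on the normal diet. Significance was lost for Plin4 without high fat library 2 or 4 or normal diet library 1.

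In fatty acid oxidation and ketogenesis, 2 of 30 genes rose and 3 fell (median -0.14, and 0.09 on the TPM scale, where 2 rose and 1 fell). Together the calls were 16.7% of the list, against 11.5% of all genes tested. Without high fat library 1 or normal diet library 2 or 4, 1 rose and 1 fell. Without high fat library 3 or normal diet library 1, 1 rose, and without high fat library 4 or normal diet library 3, 1 fell. Crot, which exports shortened acyl groups from peroxisomes, rose (854 to 1250.1 against 539 to 793 CPM on the normal diet, 0.61 ± 0.15, adjusted p = 0.0142). Eci2, an isomerase for unsaturated acyl-CoA, fell (159 to 223 against 301 to 327 CPM on the normal diet, -0.67 ± 0.12, adjusted p = 0.00155). Of 20 other targets of the fatty acid receptor PPAR alpha, Angptl4, an inhibitor of lipoprotein lipase, was the 1 called, at 42.4, 64.6, 72.9 and 31.4 CPM on the high fat diet and 76.1, 168, 148 and 153 CPM on the normal diet (-1.37 ± 0.28, adjusted p = 0.00578). That call was 5% of the list, under the 11.5% of all genes tested. The omega-hydroxylases Cyp4a10 (400.3 to 1369 against 1133 to 2098 CPM) and Cyp4a14 (479.9 to 1868 against 1113 to 2752 CPM) overlapped between diets. For Cyp4a10 the overlap was narrow, since high fat library 3 alone exceeded the lowest normal diet value.

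Of 11 genes of fatty acid uptake, 2 rose and 1 fell. Lpl, which releases fatty acids from circulating lipoproteins and stands also in the macrophage list, had 58.8, 29.9, 32.6 and 51.1 CPM on the high fat diet and 11.5, 16.8, 12 and 8.31 CPM on the normal diet (1.83 ± 0.36, adjusted p = 0.00625), without overlap and with the highest values in libraries 1 and 4. Fabp2, a fatty acid carrier best known from intestine, rose to 258, 112, 177 and 142 CPM from 89.6, 74.7, 87.2 and 77.7 CPM (1.06 ± 0.29, adjusted p = 0.0302). Mfsd2a, a transporter of lysophosphatidylcholine, fell from 83.8, 102, 102 and 126 CPM to 33.8, 32.2, 21.7 and 18.1 CPM (-1.97 ± 0.26, adjusted p = 2.8e-04). The scavenger receptor Cd36 was not called (0.20 ± 0.23, adjusted p = 0.61). The call was lost for Fabp2 without high fat library 1 or 3 or normal diet library 1, 2, 3 or 4.

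Glucose and glycogen genes fell in 7 of 26 cases and rose in none, and each fit with 1 library left out also gave 7. The list's median of -0.20 turned to 0.10 on the TPM scale, where 3 rose and 7 fell. Pck1, which commits oxaloacetate to gluconeogenesis, had 668, 1071, 1359.8 and 1396 CPM on the high fat diet and 2226, 3148, 2941 and 3069.5 CPM on the normal diet (-1.34 ± 0.20, adjusted p = 3.8e-04), with library 1 the lowest and no overlap. Gys2, the liver glycogen synthase, fell (131 to 188 against 227 to 322 CPM on the normal diet, -0.80 ± 0.13, adjusted p = 0.00104). Slc37a4, the glucose-6-phosphate transporter, fell too (101 to 129 against 173 to 228 CPM on the normal diet, -0.81 ± 0.16, adjusted p = 0.00385). Ppp1r3g, which brings a phosphatase to glycogen after meals, was low throughout, at 0.453, 0.628, 1.01 and 0.51 CPM against 2.82, 5.7, 6.07 and 1.27 CPM (-2.60 ± 0.51, adjusted p = 0.00407). Pfkfb1, which sets fructose 2,6-bisphosphate, also fell (-0.83 ± 0.11), while Fbp1, a gluconeogenic phosphatase, was not called (0.12 ± 0.13). On the insulin axis Foxo1, a transcription factor that insulin keeps out of the nucleus, fell from 65.6, 76.3, 68.6 and 79.8 CPM to 24.3, 43.8, 38.7 and 37.2 CPM (-1.01 ± 0.15, adjusted p = 3.8e-04). Trib1 (0.63 ± 0.13, with overlapping diets) and Foxa2 (0.78 ± 0.20) rose, and the insulin receptor Insr was not called (-0.11 ± 0.14). Leaving out 1 library ended the call of Foxa2 without high fat library 2 or normal diet library 2 or 3.

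Bile acid and lipoprotein genes held a few large changes beside many members that were not called. In bile acid synthesis, Hsd3b7, an early enzyme of the pathway, rose from 192, 159, 168 and 181 CPM to 326, 338, 321 and 299.8 CPM (0.87 ± 0.13, adjusted p = 4.9e-04). Cyp27a1, which opens the alternative pathway, fell (197 to 309 against 390.2 to 444 CPM on the normal diet, -0.74 ± 0.17, adjusted p = 0.00946). Much of the exon sequence of Hsd3b7 is shared with other annotated genes, so its reads could be divided. Cyp7a1, the rate-limiting enzyme of the classical pathway, was not called (-0.10 ± 0.33, adjusted p = 0.882). Slco1a1, an uptake carrier for organic anions and bile acids, had 5.17, 29.9, 36.7 and 3.1 CPM on the high fat diet and 171, 139, 190.4 and 173 CPM on the normal diet (-3.17 ± 0.62, adjusted p = 0.00684), with libraries 1 and 4 far below libraries 2 and 3. Apoa4, an apolipoprotein of triglyceride-rich particles, had 1524, 332, 730.3 and 508 CPM on the high fat diet and 159, 184, 156 and 226 CPM on the normal diet (2.09 ± 0.44, adjusted p = 0.00911), highest in library 1. Lipg, an endothelial-type lipase that acts on high density lipoprotein, fell (10.6 to 17.5 against 33 to 54.1 CPM on the normal diet, -1.66 ± 0.21, adjusted p = 1.4e-04). Apob, Apoe and Apoa1, the main structural apolipoproteins of their particles, were not called (-0.04 ± 0.18, 0.05 ± 0.13 and 0.06 ± 0.22).

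Drug and steroid metabolism moved down in part. Of 41 cytochromes P450 of families 1 to 3, 9 fell and 1 rose (median -0.32, and -0.08 on the TPM scale). The rise was kept only without high fat library 2 or 3 among the fits with 1 library left out, and was lost in the 8 female libraries alone. Of 48 conjugation enzymes 10 fell and 2 rose (median -0.36, and -0.10 on the TPM scale, where 6 fell and 5 rose). Without normal diet library 1 or 2, 6 conjugation enzymes fell. Without high fat libraries 1 and 4 the counts of falls were 4 and 5. Cyp2b10, the classical target of the receptor CAR, had 2.93, 2.25, 3.1 and 2.94 CPM on the high fat diet and 48.3, 46.2, 30.005 and 44 CPM on the normal diet (-3.91 ± 0.70, adjusted p = 0.00407), with close values in the 4 high fat libraries and no overlap. Cyp2c55 had 0.634, 0.926, 0.972 and 1.1 CPM on the high fat diet and 6.23, 5.03, 9.11 and 5.12 CPM on the normal diet (-2.81 ± 0.25, adjusted p = 7.2e-06). Cyp3a11, the main drug-metabolising P450 of its family in mouse liver, went from 7327, 7604, 7212 and 7527 CPM to 2342, 1932, 2287 and 2293 CPM (-1.74 ± 0.38, adjusted p = 0.00922). Cyp2f2 fell (389.7 to 426 against 708 to 830.5 CPM on the normal diet, -0.92 ± 0.10, adjusted p = 1.6e-05), whereas Cyp2e1, an abundant P450 that oxidises ethanol, was not called (-0.22 ± 0.18). Members of these families are similar in sequence, so that reads may be divided between them. The receptor PXR (Nr1i2, -0.79 ± 0.10) and the electron donor of all microsomal P450s (Por, -0.85 ± 0.13) fell without overlap, with 312 to 468 against 699 to 839 CPM for Por.

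Sulfotransferases moved both ways within 1 gene family. How reads were divided among similar members of the family was not tested. Sult2a7 had 0.332, 5.46, 5.27 and 2.94 CPM on the high fat diet and 29, 26.2, 31.2 and 19 CPM on the normal diet (-2.92 ± 0.48, adjusted p = 0.00216), with library 1 far below the rest. Sult2a3 had 11.5, 29.97, 51.7 and 118 CPM on the high fat diet and 7.71, 7.11, 7.83 and 4.94 CPM on the normal diet (2.94 ± 0.61, adjusted p = 0.0091), spread over a wide range in the high fat group and without overlap. Sult1e1, which inactivates oestrogen, was low and fell further, from 2.08, 2.39, 0.951 and 2.13 CPM to 0.816, 0.496, 0.374 and 0.903 CPM (-1.54 ± 0.44, adjusted p = 0.0306). Among 34 genes known to be higher in male liver, 6 fell and 1 rose (median -0.55, -0.30 on the TPM scale; 3 falls without high fat libraries 1 and 4), including Slco1a1, Cyp2f2, Srd5a1, a steroid reductase (-0.89 ± 0.19), and Elovl3, a fatty acid elongase (-1.93 ± 0.52). Among 33 tested genes known to be higher in female liver, 2 rose and none fell, namely Lpl and the sulfotransferase gene Sult2a5 (1.01 ± 0.28). The rises were 6.06% of the list, close to the 5.74% of all genes tested. Without high fat library 4 or normal diet library 1, 2 or 4, 1 rose. The TPM scale gave 5 rises and 2 falls. In these livers Lpl was lower in females than in males on the normal diet, at 8.31 to 16.8 against 19 to 58.3 CPM, while Sult2a5 had 5.14 to 7.76 CPM in females and at most 0.108 CPM in males. Of the growth hormone axis, which sets these sex differences, Igfals, which binds circulating IGF complexes, was the 1 call among 18 genes (0.37 ± 0.11, adjusted p = 0.0407, with overlapping diets). This was 5.56% of the list, against 11.5% of all genes tested. Ghr and Igf1 were not called (-0.17 ± 0.17 and -0.21 ± 0.16). Calls that a single library ended were those of Sult1e1 without high fat library 2 or 3 or normal diet library 1, 2 or 4, Elovl3 without high fat library 2 or 4 or normal diet library 2, 3 or 4, Sult2a5 without high fat library 4 or normal diet library 1, 2 or 4 and for Igfals without high fat library 1, 2 or 3 or normal diet library 1, 2 or 3.

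Of 22 tested clock genes 9 fell and 2 rose (1 rise without high fat library 4 or normal diet library 1, and 6 falls and 1 rise without high fat libraries 1 and 4). Feedback drives the clock: BMAL1 and CLOCK activate Per, Cry and Rev-erb genes, and the products of these repress the activators. Nr1d1, which encodes REV-ERB alpha, had 59.4, 44.2, 40.6 and 40.8 CPM on the high fat diet and 9.16, 9.99, 16.3 and 17.8 CPM on the normal diet (1.79 ± 0.21, adjusted p = 7.6e-05), and all high fat values were more than 2 times the highest normal diet value. Dbp, an output transcription factor, rose from 45.4, 40.1, 50.1 and 49.2 CPM to 99.3, 57.3, 54.4 and 89.9 CPM (0.70 ± 0.19, adjusted p = 0.0263). Noct, a rhythmic phosphatase of NADPH, had 22.8, 13.2, 14.2 and 13.3 CPM on the high fat diet and 75.3, 60.7, 55.9 and 58.4 CPM on the normal diet (-1.97 ± 0.20, adjusted p = 1.6e-05). Cry1 fell from 18.9, 25.8, 18 and 18.1 CPM to 3.78, 7.97, 9.95 and 6.95 CPM (-1.50 ± 0.22, adjusted p = 3.5e-04). Per1 fell (2.24 to 10.2 against 15.8 to 25.9 CPM on the normal diet, -1.75 ± 0.31, adjusted p = 0.00278), as did Per2 (12.7 to 16.7 against 20.2 to 26.2 CPM on the normal diet, -0.65 ± 0.13, adjusted p = 0.00347). The deubiquitinase Usp2 (-1.56 ± 0.23) and the repressor Ciart (-1.73 ± 0.40) fell without overlap. The BMAL1 gene Arntl was not called (0.85 ± 0.28, adjusted p = 0.0593), nor were Hlf (-0.10 ± 0.15) and Bhlhe40 (0.04 ± 0.20). On the TPM scale 5 rose and 5 fell. These genes cycle over the day, and the part of the hour of collection in the changes was not tested. Significance was lost for Dbp without high fat library 1 or 4 or normal diet library 1 or 2.

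Of 15 genes that respond to glucocorticoids, 9 fell and none rose (median -0.83, -0.47 on the TPM scale), between 7 and 9 in the fits with 1 library left out and 6 without high fat libraries 1 and 4. Tat, the tyrosine aminotransferase and a classical target of the glucocorticoid receptor, had 467, 528, 774 and 675 CPM on the high fat diet and 2150.3, 2629.8, 1855 and 1964 CPM on the normal diet (-1.81 ± 0.19, adjusted p = 1.6e-05). Fkbp5, a co-chaperone of the receptor, had 49.96, 67.2, 65.9 and 47.6 CPM on the high fat diet and 166, 129.8, 122 and 198 CPM on the normal diet (-1.42 ± 0.16, adjusted p = 4.2e-05). Zbtb16, a zinc finger repressor, fell from 20.6, 23.7, 20.6 and 25.4 CPM to 1.33, 3.41, 2.58 and 6.32 CPM (-2.74 ± 0.37, adjusted p = 3.8e-04). In these genes and in Tsc22d3, which encodes the anti-inflammatory protein GILZ (-1.55 ± 0.23), the diets did not overlap. Klf9 (-0.63 ± 0.14), Sgk1 (-0.55 ± 0.16) and Errfi1 (-1.24 ± 0.30) also fell, with overlapping diets in Sgk1. The receptor gene Nr3c1 (0.05 ± 0.15, adjusted p = 0.864) and the activating enzyme Hsd11b1 (-0.36 ± 0.15, adjusted p = 0.135) were not called. Per1 stands in both the clock and the glucocorticoid list. The call was lost for Sgk1 without high fat library 1 or 3 or normal diet library 1 or 2.

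**Figure D3:**
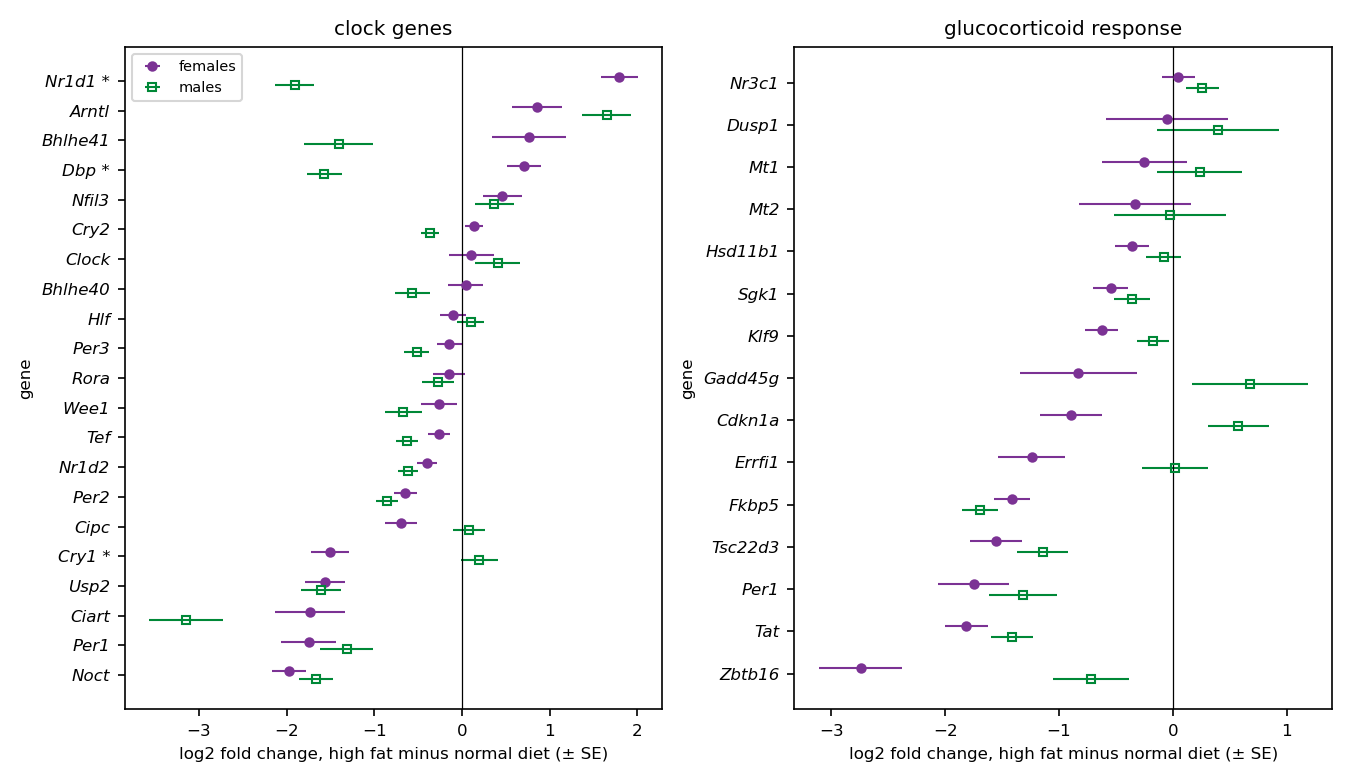
Points are log2 fold changes, high fat minus normal diet, of 21 of the 22 tested clock genes (left panel) and glucocorticoid-responsive genes (right panel). Filled circles are females and open squares are males. Bars are SE, derived from the fold change and its test statistic. An asterisk marks a called difference between the sexes. Nr1d1 and Dbp lie to the right of 0 in females and to the left in males, while Tat and Fkbp5 lie to the left in both.

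Immediate early genes, which cells switch on within minutes of a stimulus, rose in 7 of 22 tested cases and fell in 3 (4 rises without high fat library 4, and 4 rises and 1 fall without high fat libraries 1 and 4). There were 13 rises and 3 falls on the TPM scale. Fos, a subunit of the AP-1 dimer, was low and had 2.33, 6.28, 2.36 and 4.32 CPM on the high fat diet and 0.371, 0.582, 0.329 and 0.329 CPM on the normal diet (3.23 ± 0.44, adjusted p = 1.9e-04), without overlap. Its normal diet values were near the floor, and Fos may have passed the filter on low counts through libraries where it was high. Egr1, a zinc finger activator, rose from 4.93, 6.16, 7.46 and 7.85 CPM to 17.7, 39.5, 11.7 and 23.2 CPM (1.80 ± 0.38, adjusted p = 0.00865), with library 2 the highest for both genes. Gadd45a, a stress gene, rose (5.12 to 12.6 against 1.56 to 3.45 CPM on the normal diet, 2.01 ± 0.32, adjusted p = 7.3e-04), whereas Gadd45b (-1.57 ± 0.37, with overlapping diets) and the C/EBP factor genes Cebpb (-1.15 ± 0.21) and Cebpd (-0.99 ± 0.24) fell. Dusp1 and Zfp36 were not called (-0.05 ± 0.54 and 0.09 ± 0.18).

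Interferon-inducible genes rose together. All 36 genes of the type I interferon response had a positive difference, against 50.2% of all genes tested, and 26 of them rose (median 1.19, 1.02 on the TPM scale). Of 24 tested interferon gamma GTPases and regulators, 20 rose (median 1.58, 1.54 on the TPM scale), and no member of either list fell. With 1 library left out 18 to 28 and 17 to 21 members were called, and without high fat libraries 1 and 4 there were 15 (median 0.70) and 11 (median 0.75). In the 8 female libraries alone 28 and 14 were called. Ifit1, which binds foreign RNA, had 53.3, 38.2, 41.1 and 69.2 CPM on the high fat diet and 12.6, 15.3, 16.9 and 10.01 CPM on the normal diet (1.88 ± 0.20, adjusted p = 2.7e-05). Oasl1 had 17, 10.6, 11.3 and 12 CPM on the high fat diet and 3.89, 5, 5.27 and 3.39 CPM on the normal diet (1.54 ± 0.19, adjusted p = 1.0e-04). Rsad2, which encodes the antiviral viperin, had 27.8, 23.7, 20.1 and 29.7 CPM on the high fat diet and 6.04, 11.5, 9.4 and 7.55 CPM on the normal diet (1.55 ± 0.19, adjusted p = 1.0e-04). In these 3 genes every high fat library exceeded every normal diet library, libraries 2 and 3 included. Irf9, a subunit of the factor ISGF3, rose (37.9 to 49.3 against 22.5 to 27.3 CPM on the normal diet, 0.78 ± 0.10). Bst2, which tethers budding virus, and Irf7, a factor that amplifies the response, were not called (0.30 ± 0.24 and 0.63 ± 0.26).

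Among the GTPases, which act on membranes of intracellular microbes, Gbp11 had 20.3, 17, 16 and 23 CPM on the high fat diet and 3.82, 3.46, 3.44 and 3.12 CPM on the normal diet (2.46 ± 0.25, adjusted p = 1.6e-05), with little spread within either diet. Irgm1 had 171, 81.1, 105 and 226 CPM on the high fat diet and 57.8, 58.1, 56.2 and 49.6 CPM on the normal diet (1.40 ± 0.22, adjusted p = 9.5e-04). Igtp had 255, 74.4, 107 and 368 CPM on the high fat diet and 50.1, 59, 43.5 and 37.7 CPM on the normal diet (2.08 ± 0.39, adjusted p = 0.00457). In both, libraries 1 and 4 were the highest and libraries 2 and 3 still lay above the normal diet. Tgtp1 was more extreme, with 263, 17.5, 35.1 and 531 CPM on the high fat diet and 17.3, 16.6, 16.2 and 6.99 CPM on the normal diet (3.89 ± 0.85, adjusted p = 0.012), so that libraries 2 and 3 lay close to the normal diet range. Irf1, a transcription factor that both interferon types induce, had 57.1, 28.1, 38.1 and 64.1 CPM on the high fat diet and 19.5, 19, 17.9 and 14.1 CPM on the normal diet (1.41 ± 0.19, adjusted p = 2.3e-04). Cxcl10, a chemokine for T cells, rose (6.62 to 23.2 against 1.44 to 3.65 CPM on the normal diet, 2.34 ± 0.41, adjusted p = 0.00223). Cxcl9, of similar function, was not called (1.53 ± 0.48, adjusted p = 0.0566). Neither receptor chain of interferon gamma was called (Ifngr1 0.21 ± 0.10 and Ifngr2 0.12 ± 0.14). Tgtp1 and Tgtp2, and several Gbp genes, are near copies, and the split of reads among them is uncertain.

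The letters GAAA, any 2 bases and GAAA again, the core that interferon-stimulated response elements share, were searched on both strands of the same RefSeq windows (GRCm38.p6, 250 bases upstream of a start). They occurred in 11 of 30 windows (36.7%) of the type I list, 11 of 21 (52.4%) of the interferon gamma list and 2.98% of all windows. TTCNNNGAA, the core of gamma-activated sites, occurred in 8 of 21 windows (38.1%) of the interferon gamma list, 5 of 30 (16.7%) of the type I list and 7.02% of all. Windows of 2 members of each list are printed with the matches to the response element core, or their complement, in capitals, overlapping matches running together. The window of Gbp7 also holds TTCNNNGAA, which is left in lower case. Isg15 encodes a ubiquitin-like modifier (1.63 ± 0.37) and Gbp7 a guanylate-binding protein (1.47 ± 0.26).
Ifit1, chr19:34640639-34640888, plus strand: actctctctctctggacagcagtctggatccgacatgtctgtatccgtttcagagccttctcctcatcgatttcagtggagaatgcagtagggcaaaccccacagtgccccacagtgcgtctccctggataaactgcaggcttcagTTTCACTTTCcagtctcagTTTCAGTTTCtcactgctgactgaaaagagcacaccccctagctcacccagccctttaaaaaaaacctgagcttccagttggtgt
Isg15, chr4:156200819-156201068, minus strand: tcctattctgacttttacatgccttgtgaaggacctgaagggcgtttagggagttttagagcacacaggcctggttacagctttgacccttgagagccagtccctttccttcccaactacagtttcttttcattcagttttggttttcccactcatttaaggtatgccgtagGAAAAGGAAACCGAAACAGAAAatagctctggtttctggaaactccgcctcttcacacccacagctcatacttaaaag
Irgm1, chr11:48871421-48871670, minus strand: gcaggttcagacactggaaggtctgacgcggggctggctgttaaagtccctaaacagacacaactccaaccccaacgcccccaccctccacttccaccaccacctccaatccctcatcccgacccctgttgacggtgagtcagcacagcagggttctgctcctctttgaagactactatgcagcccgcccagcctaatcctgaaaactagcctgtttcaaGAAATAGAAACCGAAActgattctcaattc
Gbp7, chr3:142530086-142530335, plus strand: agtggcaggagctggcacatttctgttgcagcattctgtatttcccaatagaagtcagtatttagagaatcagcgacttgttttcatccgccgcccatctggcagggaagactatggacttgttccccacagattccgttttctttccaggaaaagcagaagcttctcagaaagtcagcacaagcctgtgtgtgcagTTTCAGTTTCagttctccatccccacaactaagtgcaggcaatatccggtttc

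Antigen presentation genes rose in fewer cases and rested on high fat libraries 1 and 4. For MHC class I, 5 of 19 genes rose (1 without both libraries, 3 without either of them or normal diet library 1 or 4, and 10 without high fat library 2), and 10 rose on the TPM scale. Tap1, a peptide pump, had 51.7, 19.4, 22.9 and 63 CPM on the high fat diet and 10.2, 11.2, 11.8 and 9.27 CPM on the normal diet (1.89 ± 0.30, adjusted p = 0.0013). Psmb9, an immunoproteasome subunit, had 45.7, 12, 14.7 and 49.6 CPM on the high fat diet and 9.9, 11.8, 7.57 and 6.41 CPM on the normal diet (1.77 ± 0.39, adjusted p = 0.0116). Libraries 2 and 3 lay above all normal diet values in both genes, narrowly for Psmb9, and well below libraries 1 and 4. The class I chains themselves were not called (H2-K1 0.25 ± 0.15, H2-D1 0.33 ± 0.17 and B2m 0.16 ± 0.12). For MHC class II, 4 of 10 tested genes rose, but none without high fat libraries 1 and 4 or without library 4 alone, 1 without high fat library 1 or normal diet library 3 or 4, 2 without normal diet library 1 or 2, and 8 or 9 without high fat library 2 or 3. With all libraries DESeq2 called 9 of the 10, as did the fit on the TPM scale, and 2 rose in the 8 female libraries alone. Cd74, the invariant chain, had 194, 68.6, 87.8 and 244 CPM on the high fat diet and 75, 75.2, 59.6 and 34.7 CPM on the normal diet (1.28 ± 0.37, adjusted p = 0.0389). The class II regulator Ciita had 2.99, 1.42, 1.53 and 6.28 CPM on the high fat diet and 0.408, 0.797, 1.43 and 0.557 CPM on the normal diet (1.94 ± 0.46, adjusted p = 0.0117). In both genes libraries 2 and 3 lay within or next to the normal diet range. Leaving out 1 library ended the call of Cd74 without high fat library 1 or 4 or normal diet library 1, 2, 3 or 4 and for Ciita without high fat library 4.

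**Figure D4:**
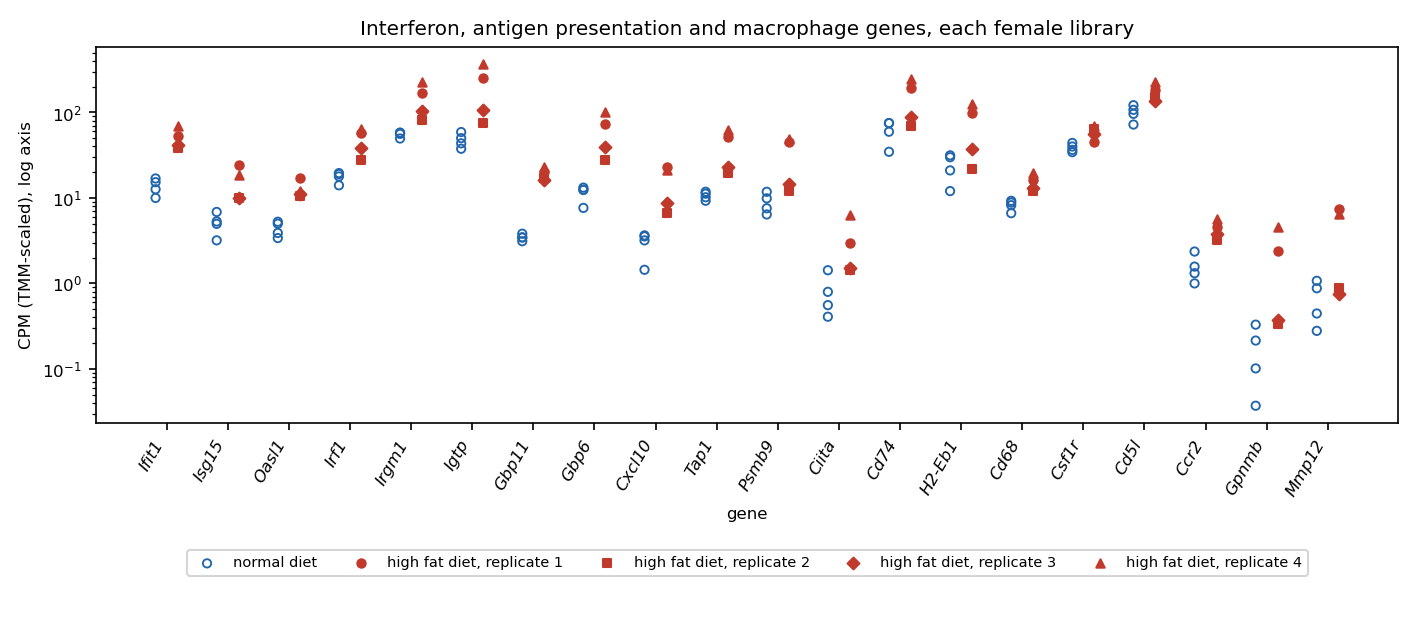
Points are CPM (TMM-scaled, log axis) of 20 interferon, antigen presentation and macrophage genes in each female library, with open blue circles for the normal diet and a filled red symbol per high fat replicate. Ifit1, Oasl1, Irf1 and Gbp11 are higher in all 4 high fat libraries, whereas in Cd74, H2-Eb1, Gpnmb and Mmp12 replicates 1 and 4 lie above replicates 2 and 3, which are near the normal diet.

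Markers of immune cells were read as a list in bulk tissue, in which fewer cells of a type and less RNA per cell cannot be told apart. Of 17 markers of resident Kupffer cells, 4 rose and none fell (median 0.60), from 1 without normal diet library 4 and 2 without high fat library 1 or 4 or normal diet library 3 to 8 without high fat library 3, and 0 without high fat libraries 1 and 4. On the TPM scale 11 rose. Their summed CPM was 1089, 1159, 1031 and 1222 in the high fat libraries and 924, 972, 808 and 752 in the normal diet libraries, without overlap. Cd68, a lysosomal protein of macrophages, had 16.4, 12.1, 13.2 and 19.8 CPM on the high fat diet and 8.23, 9.26, 8.82 and 6.64 CPM on the normal diet (0.90 ± 0.16, adjusted p = 0.00193). Csf1r, the receptor for the growth factor CSF1, had 45.4, 64.5, 55.6 and 69.5 CPM on the high fat diet and 36.5, 44, 39.99 and 34.3 CPM on the normal diet (0.60 ± 0.16, adjusted p = 0.0183). Clec4f, the defining marker of Kupffer cells, did not overlap between diets, at 156, 159.8, 151 and 176 CPM against 129, 128, 115 and 97.4 CPM, but was not called (0.45 ± 0.17, adjusted p = 0.0837). Cd5l, secreted by these cells, rose (0.82 ± 0.25). Calls that a single library ended were those of Csf1r without high fat library 4 or normal diet library 4 and for Cd5l without high fat library 1 or 4 or normal diet library 1, 3 or 4.

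Of 16 markers of lipid-associated and recruited macrophages 8 rose, and 0 of them without high fat libraries 1 and 4 (4 without either alone, 3 without normal diet library 4 and 5 without normal diet library 1, 2 or 3). Their summed CPM was 304, 267, 236 and 356 on the high fat diet and 233, 231, 238 and 213 on the normal diet. Ccr2, the receptor by which monocytes leave the bone marrow, had 4.59, 3.21, 3.81 and 5.65 CPM on the high fat diet and 1, 2.36, 1.57 and 1.32 CPM on the normal diet (1.46 ± 0.31, adjusted p = 0.00662), without overlap. Gpnmb, a glycoprotein of foamy macrophages, had 2.42, 0.331, 0.374 and 4.51 CPM on the high fat diet and 0.0371, 0.215, 0.329 and 0.101 CPM on the normal diet (3.47 ± 0.84, adjusted p = 0.0156), with 2 high and 2 low high fat libraries. On the normal diet Gpnmb was near the floor. The filter on low counts can keep such a gene through the libraries where it is high, so its call is not read as a change in macrophages. Mmp12, a macrophage elastase, had 7.49, 0.893, 0.748 and 6.51 CPM on the high fat diet and 0.445, 1.07, 0.878 and 0.279 CPM on the normal diet (2.56 ± 0.75, adjusted p = 0.0418) and overlapped. Lyz2, a lysozyme, and Spp1, which encodes osteopontin, were not called (0.41 ± 0.20 and -0.03 ± 0.20). Significance was lost for Gpnmb without normal diet library 1 or 4 and for Mmp12 without high fat library 1 or 4 or normal diet library 1, 2, 3 or 4.

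Cytokine and chemokine genes rose in 7 of 21 tested cases and fell in 1 (4 rises without normal diet library 1 and 2 without high fat libraries 1 and 4, and 10 on the TPM scale). Il1b had 4.32, 3.84, 3.37 and 4.79 CPM on the high fat diet and 1.22, 1.87, 1.79 and 1.11 CPM on the normal diet (1.44 ± 0.21, adjusted p = 3.5e-04). Csf1 had 15.8, 13, 13.6 and 15.5 CPM on the high fat diet and 7.34, 7.08, 9.55 and 8.66 CPM on the normal diet (0.83 ± 0.14, adjusted p = 0.00119), both without overlap. Ccl2, which recruits monocytes, was highest in library 1, with 4.35, 0.628, 0.935 and 1.81 CPM on the high fat diet and 0.445, 0.521, 0.183 and 0.38 CPM on the normal diet (2.32 ± 0.52, adjusted p = 0.009). Its normal diet values were near the floor, and Ccl2 may have passed the filter on low counts through libraries where it was high. Nfkbia, an inhibitor of NF-kappaB, fell (-0.54 ± 0.12, adjusted p = 0.00873). Tnf, Il6, Il10, Ccl3, Ccl4, Ccl7 and Cxcl2 did not pass the filter on low counts. No marker of 12 tested for T and NK cells, 7 for B and plasma cells or 9 for dendritic cells was called by edgeR, and their summed CPM overlapped between diets. Positive differences numbered 9, 6 and 9 in these lists (medians 0.40, 0.86 and 0.76), against 50.2% of all genes tested. With log2(TPM + 0.1) the medians were 0.51, 0.80 and 0.71, against 0.22 for all genes. Unadjusted p-values under 0.05 numbered 1, 2 and 1, and DESeq2 called 0, 1 and 1. The summed T and NK markers were 15.7, 10.2, 10.8 and 21.7 CPM on the high fat diet and 11.6, 12.1, 11.2 and 9.04 CPM on the normal diet, again highest in libraries 1 and 4. Of 12 neutrophil markers 3 passed the filter and S100a8 and Csf3r rose (2.51 ± 0.74 and 1.13 ± 0.35). S100a8 was near the floor, with 1.09, 0.463, 0.486 and 0.314 CPM on the high fat diet and 0.0371, 0.123, 0.0732 and 0.152 CPM on the normal diet. The filter can keep such a gene through the libraries where it is high, so the calls are not read as a change in neutrophils. The list's summed CPM of 5.47, 3.31, 2.54 and 3.37 against 1.71, 1.75, 1.57 and 0.836 did not overlap, and Mpo and Camp were at 0 in all 8 libraries. The call was lost for S100a8 without high fat library 1 or normal diet library 1, 2, 3 or 4 and for Csf3r without high fat library 1, 2 or 4 or normal diet library 2, 3 or 4.

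Markers of stellate cells, which make matrix in the injured liver, rose in 4 of 18 cases, and collagens and matrix genes rose in 4 of 27 and fell in 1. Without high fat library 1 or 4, or normal diet library 2 or 4, 2 stellate markers were called. The matrix list gave 1 rise without high fat library 1 or 4 or normal diet library 4 and 2 without normal diet library 1 or 2. The TPM scale gave 9 rises of matrix genes. Without high fat libraries 1 and 4 there were 1 stellate marker and no matrix gene with a rise. Ngfr, a marker of activated stellate cells, had 5.71, 3.14, 2.51 and 2.98 CPM on the high fat diet and 1.3, 1.16, 1.46 and 0.785 CPM on the normal diet (1.62 ± 0.26, adjusted p = 7.9e-04). Mmp2, a gelatinase, had 2.99, 2.51, 2.62 and 2.55 CPM on the high fat diet and 1.04, 1.47, 0.951 and 0.988 CPM on the normal diet (1.26 ± 0.29, adjusted p = 0.00939). In both the diets did not overlap. Col1a1 had 9.33, 3.94, 3.14 and 8.48 CPM on the high fat diet and 1.67, 1.29, 3.26 and 2 CPM on the normal diet (1.61 ± 0.45, adjusted p = 0.0318), high in libraries 1 and 4, with library 3 inside the normal diet range. Timp3, an inhibitor of metalloproteinases, fell (27.2 to 36.2 against 49.4 to 52.3 CPM on the normal diet, -0.78 ± 0.14, adjusted p = 0.00206). Dcn, a small proteoglycan, was not called (-0.15 ± 0.10). None of 24 endothelial markers was called by edgeR (4 at an unadjusted p under 0.05, 2 by DESeq2), 1 of 13 for cholangiocytes was (none without high fat library 1, 2 or 4 or normal diet library 1, 2 or 4), and none was for red blood cells, adipocytes, mesothelium or pancreatic acinar cells (1, 1, 0 and 0 at an unadjusted p under 0.05, and 0, 1, 0 and 0 by DESeq2). Leaving out 1 library ended the call of Col1a1 without high fat library 1 or 4 or normal diet library 1, 2 or 4.

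**Figure D5:**
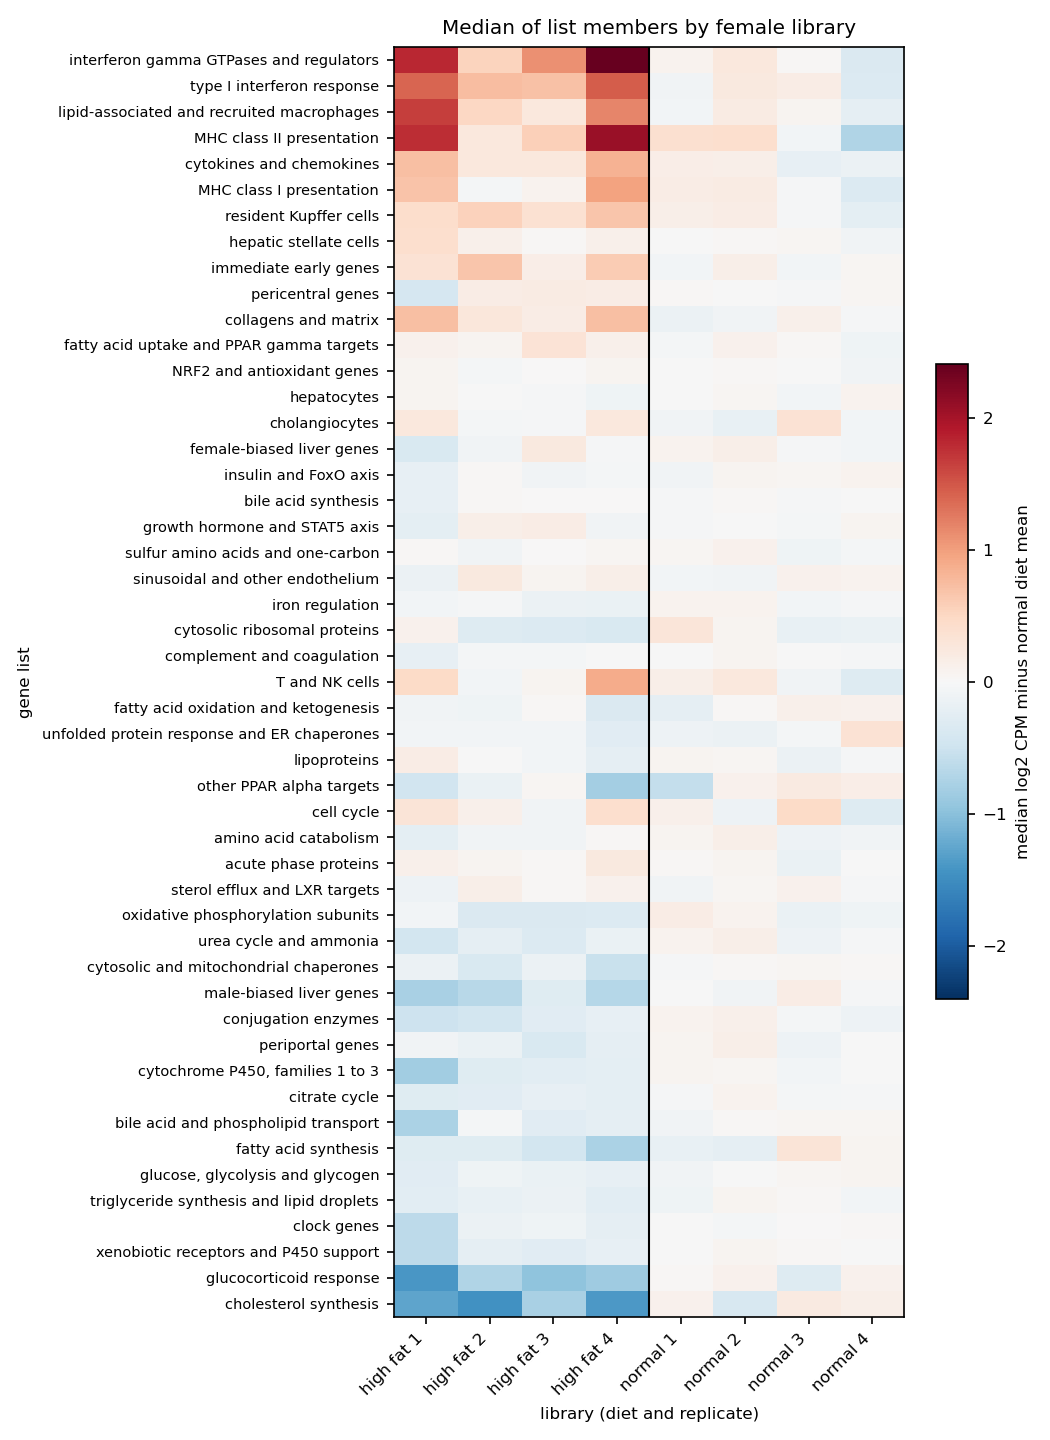
Colours give, for each gene list with at least 10 tested members (rows) and each female library (columns), the median over members of log2 CPM minus the normal diet mean; red is higher and blue lower. Interferon gamma GTPases reach 1.82 and 2.40 in high fat replicates 1 and 4 against 0.54 and 1.10 in replicates 2 and 3, and cholesterol synthesis lies between -1.46 and -0.79 in all 4.

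Mitochondrial and ribosomal genes were slightly lower on the TMM scale. All 72 ribosomal protein genes had a negative difference (median -0.23) but none was called by edgeR, 9 had an unadjusted p under 0.05 and DESeq2 called 2, and on the TPM scale 41 of them were negative with a median of -0.01. Of 54 subunits of oxidative phosphorylation 53 had a negative difference (median -0.27, -0.05 on the TPM scale) and 7 fell, from 1 without high fat library 4 or normal diet library 1 or 2, 2 or 3 without high fat library 2 or 3 or normal diet library 4, to 15 without high fat library 1 (1 without high fat libraries 1 and 4). Cycs, the electron carrier cytochrome c, fell from 142, 156, 126 and 148 CPM to 93.3, 88.9, 104 and 69 CPM (-0.69 ± 0.13, adjusted p = 0.00293). In the citrate cycle 4 of 19 genes fell (median -0.23). On the TPM scale 1 fell and 2 rose, with a median of 0.00. The count of falls was 1 without normal diet library 1 or 2 and 2 without high fat library 2, 3 or 4 or normal diet library 4. Among all genes tested 49.8% had a negative difference. High fat library 1 is again the exception, with a median ribosomal protein value of 0.10 relative to the normal diet mean, where the other 3 lay between -0.36 and -0.32.

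Of 29 genes of the unfolded protein response, which relieves stress of the secretory pathway, 1 fell, Herpud1, a component of protein disposal from the endoplasmic reticulum, with 173, 243, 166 and 182 CPM on the high fat diet and 417, 474, 421 and 492 CPM on the normal diet (-1.24 ± 0.16, adjusted p = 1.4e-04). Hspa5, the central chaperone of that compartment, was not called (-0.30 ± 0.36, adjusted p = 0.634). The call of Herpud1 was 3.45% of the list, under the 11.5% of all genes tested. In nitrogen metabolism 2 of 15 genes of the urea cycle fell, Cps1 and Asl (-0.52 ± 0.13 and -0.64 ± 0.16). These were 13.3% of the list, against 5.76% called lower among all genes tested. On the TPM scale none fell and 1 rose, and the number of falls went from 0 without normal diet library 1 to 4 without normal diet library 3. Cbs, which opens transsulfuration, rose (216 to 330.4 against 149.99 to 169.6 CPM on the normal diet, 0.67 ± 0.18, adjusted p = 0.0262), and Ahcy, which removes homocysteine's adenosine adduct, fell (-0.63 ± 0.16). Of 23 NRF2 and antioxidant genes 3 rose and 1 fell (median 0.05). The calls were 17.4% of the list, against 11.5% of all genes tested. Srxn1 (0.67 ± 0.16) and Osgin1 (1.00 ± 0.26) rose with the factor's own gene Nfe2l2 (0.36 ± 0.10), and Gss, the glutathione synthetase, fell with overlapping diets (-0.33 ± 0.10). On the TMM scale the list's summed CPM was lower on the high fat diet, at 6655 to 6956 against 7016 to 7852. That direction rests on the scaling, since the list's median was 0.20 on the TPM scale, against 0.15 for all genes. The TPM scale gave 8 rises and no fall, and without high fat library 4 or normal diet library 1 there was 1 rise. Calls that a single library ended were those of Cps1 without high fat library 1 or normal diet library 1 or 4, Asl without normal diet library 1 or 2, Cbs without high fat library 1 or normal diet library 1, 3 or 4, Ahcy without normal diet library 2, Srxn1 without high fat library 4, Osgin1 without high fat library 1 or normal diet library 1, Nfe2l2 without high fat library 4 or normal diet library 1 or 4 and for Gss without high fat library 2, 3 or 4 or normal diet library 1, 2, 3 or 4.

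Of 23 genes of periportal hepatocytes 5 fell and 1 rose, against 5.76% and 5.74% of all genes tested. The falls were Cyp2f2, Pck1, Asl, Cps1 and Mfsd2a and the rise was Apoa4, all described under their pathways. There were 3 falls on the TPM scale or without normal diet library 1, 4 without high fat libraries 1 and 4, and 8 in the 8 female libraries alone. On the TMM scale the list's summed CPM was 18004 to 20864 on the high fat diet and 22428 to 26729 on the normal diet, without overlap. This gap depends on the scaling. The list's median was -0.18 on that scale and 0.06 on the TPM scale, where 12 differences were positive and 11 negative. Of 23 pericentral genes 4 rose and none fell, with 1 rise without high fat library 2 or 4 or normal diet library 2 or 4, 2 without normal diet library 1 or 3, and 7 on the TPM scale. Lgr5, a Wnt target of hepatocytes around the central vein, rose from 3.48, 2.85, 3.29 and 3.29 CPM to 5.86, 11, 7.97 and 6.83 CPM (1.29 ± 0.21, adjusted p = 9.5e-04), as did the Wnt feedback genes Nkd1 (0.55 ± 0.16) and Rnf43 (0.55 ± 0.16), while Glul, the glutamine synthetase of the same zone, was not called (0.12 ± 0.19). Of 13 hepatocyte markers 2 rose and 1 fell (median -0.01). With 1 library left out at a time, 0 or 1 of these markers rose and 1 fell. Their summed CPM of 107340.0 to 128104 against 129870.0 to 147518 did not overlap, but this rests on the TMM scaling. With log2(TPM + 0.1) 3 markers rose and none fell, with a median of 0.24 against 0.22 for all genes. Hnf4a, a master regulator of hepatocytes, had 319, 417, 386 and 353 CPM on the high fat diet and 569, 561, 546 and 553 CPM on the normal diet (-0.60 ± 0.12, adjusted p = 0.00331), without overlap, and Cebpa rose (0.35 ± 0.10). None of 35 complement and coagulation genes was called by edgeR (3 at an unadjusted p under 0.05, 1 by DESeq2), and of 25 acute phase genes the 2 falls were receptors, Il6ra (29 to 50.4 against 97.7 to 115 CPM, -1.33 ± 0.19) and Il1r1 (17.9 to 30.1 against 50.9 to 77 CPM, -1.28 ± 0.33). The acute phase calls were 8% of that list, under the 11.5% of all genes tested. Significance was lost for Nkd1 without high fat library 2 or 4 or normal diet library 1, 2 or 4, Rnf43 without high fat library 1, 2 or 4 or normal diet library 2, 3 or 4, Cebpa without high fat library 1 or 2 or normal diet library 1, 2, 3 or 4 and for Il1r1 without high fat library 1 or normal diet library 1 or 2.

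The 10 largest rises among genes without overlap held mostly genes of the interferon lists or their neighbours. Genes entered at a mean log2 CPM of 1 or more over all 16 libraries, males included. Cd274, which encodes the immune checkpoint ligand PD-L1, had 12.4, 6.65, 7.67 and 22.9 CPM on the high fat diet and 2.26, 2.12, 1.61 and 2 CPM on the normal diet (2.63 ± 0.30, adjusted p = 5.8e-05). Gvin1, a very large interferon-inducible GTPase, had 96.9, 49.7, 45 and 241 CPM on the high fat diet and 20.2, 24.6, 20.1 and 16.4 CPM on the normal diet (2.41 ± 0.55, adjusted p = 0.0141). BC023105 had 11, 2.84, 5.16 and 53.6 CPM on the high fat diet and 0.63, 2.08, 2.56 and 0.785 CPM on the normal diet (3.59 ± 0.87, adjusted p = 0.0197), with library 4 far above the others. Gbp10, Gbp6, Gbp11, Tgtp1 and the overlapping gene Gm43302 were among the rest, and 2 further rises had no symbol. Among the 10 largest falls, Slc22a28, an organic anion transporter, was low, with 0.151, 0.165, 0.187 and 0.0392 CPM on the high fat diet and 1.93, 0.644, 2.23 and 1.39 CPM on the normal diet (-3.43 ± 0.46, adjusted p = 2.3e-04). Slc22a28 reached the required mean only through the male libraries, at 7.42 to 28 CPM. Cyp2c54 fell (61.4 to 209.9 against 605 to 768 CPM on the normal diet, -2.38 ± 0.46). The other 8 were Cyp2b10, Lpin1, Slco1a1, Sult2a7, Cyp2c55, Zbtb16, Sqle and Idi1. The call was lost for BC023105 without normal diet library 1 or 4.

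Whether a change differed from that in males was tested as an interaction, females minus males, and 100 of 14781 genes were called (0.677%). In males alone 891 genes rose (6.03%) and 793 fell (5.36%) on the high fat diet. Nr1d1 rose in females and fell in males (-1.91 ± 0.22), a difference of 3.71 ± 0.30 (SE) with an adjusted p of 5.5e-06. Dbp differed in the same sense (2.27 ± 0.28, adjusted p = 8.4e-04). Cry1 differed the other way (-1.70 ± 0.30, adjusted p = 0.0112). Insig1 fell by more in males (-1.65 ± 0.10, difference 1.07 ± 0.14, adjusted p = 0.0011). Mfsd2a, Plin4, Sult1e1 and Sult2a7 fell in females, against male values of 0.33 ± 0.25, 1.34 ± 0.37, 2.54 ± 0.47 and 1.02 ± 0.53 (adjusted p of the difference 0.00629, 0.0251, 0.00582 and 0.0217). Irf1 rose in females against -0.07 ± 0.19 in males (difference 1.49 ± 0.27, adjusted p = 0.0142). Cbs rose in females against -0.52 ± 0.18 in males (adjusted p = 0.0419). No member of the cholesterol, glucocorticoid, MHC or macrophage lists, and no type I interferon gene, was called in this test. The heat shock genes Hspa8 (0.91 ± 0.19) and Hsph1 (1.85 ± 0.33), the sterol sensor partner Insig2 (-1.64 ± 0.33), the acyltransferase Agpat2 (-0.91 ± 0.16) and the taurine enzyme Csad (3.06 ± 0.52) were called too, as were Cyp2c40 (3.22 ± 0.51), Gstm4 (1.17 ± 0.20), Serpina3m (-1.30 ± 0.21) and Themis (-4.35 ± 0.75). The count of calls was 51 and 57 without female normal diet library 2 or 4, 62 and 58 without male high fat library 2 or 3, and 176 without male high fat library 1.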

How the data were processed

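RNA of 16 mouse liver samples was sequenced as poly(A) libraries, per the labels' protocols. The authors deposited expected counts and TPM (length-scaled transcript abundance) per gene, and STAR, RSEM and the build GRCm39 are named in the submitters' processing notes. Use of strand and the annotation are not given in the sources used here, so reads of overlapping or antisense genes could be shared, and RSEM divides reads among near copies. Expected counts were rounded and filtered with filterByExpr over the 4 groups, and library sizes were scaled by TMM. The 16 libraries were fitted with 1 mean per group in edgeR 4.0.16 (R 4.3.3, robust quasi-likelihood test), with p-values adjusted by Benjamini-Hochberg over all 14781 genes and a threshold of 0.05. DESeq2 1.42.0 and limma 3.58.1 on log2(TPM + 1) or log2(TPM + 0.1) served as alternatives, besides other scaling, no filter, female libraries alone, a block on the replicate number and single libraries left out. The scripts were tested on simulated data. Of the tested genes 14038 had a symbol. The comparison and the 57 gene lists were chosen with earlier results of these data known. Within a list, called members were named in order of p, up to 6 per direction, with up to 4 uncalled members of high mean CPM. Among all genes, up to 10 called rises and 10 falls with the largest fold change and without overlap were named. Their mean log2 CPM over all 16 libraries was 1 or more. List members with a called difference between the sexes were named too. Not all eligible genes are printed, some members are not reported here, and Clec4f, Arntl, Cxcl9, Nr3c1, Ifngr1 and the unmeasured cytokines were picked after their values were seen. Promoter windows come from RefSeq GRCm38.p6.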

Additional observations from a re-analysis of the deposited data

Results flagged for a closer look

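In 24 of 362 groups of 4 female libraries checked, 1 library lay far from the other 3 (by the criterion of Dixon), where chance gives about 1 in 20 groups. High fat library 1 stood apart in Gadd45b (2.93 CPM), Gss (66.2 CPM), Ifngr2 (34.6 CPM), Noct (22.8 CPM) and Por (312 CPM). High fat library 2 stood apart in Cyp3a11 (1932 CPM). High fat library 4 stood apart in BC023105 (53.6 CPM) and Sult2a5 (20.2 CPM). Normal diet library 1 stood apart in Gadd45a (3.45 CPM), Hspa8 (1305 CPM) and Pnpla2 (59.1 CPM). Normal diet library 2 stood apart in Cebpa (176 CPM), Cry1 (25.8 CPM), Cyp51 (165 CPM), Fos (0.582 CPM), Gbp7 (38.4 CPM), Idi1 (289.7 CPM), Mmp2 (1.47 CPM) and Msmo1 (260.2 CPM). Normal diet library 3 stood apart in Scd1 (6357 CPM). Normal diet library 4 stood apart in Gbp6 (7.65 CPM), Hspa5 (961 CPM), Srxn1 (34.2 CPM) and Tgtp1 (6.99 CPM).

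The diet change differed between females and males by the interaction test in 19 of the named genes. On the log2 scale, female minus male, the difference was -0.91 for Agpat2, 1.19 for Cbs, -1.70 for Cry1, 3.06 for Csad, 3.22 for Cyp2c40, 2.27 for Dbp, 1.17 for Gstm4, 0.91 for Hspa8, 1.85 for Hsph1, 1.07 for Insig1, -1.64 for Insig2, 1.49 for Irf1, -2.30 for Mfsd2a, 3.71 for Nr1d1, -2.94 for Plin4, -1.30 for Serpina3m, -4.08 for Sult1e1, -3.94 for Sult2a7 and -4.35 for Themis. The part of the hour of collection, which bears on the clock genes among them, was not tested.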

How the results depend on the processing

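No gene called in females took the opposite sign in a call under any alternative run, and the counts of calls moved as follows, against 1700 (848 higher and 852 lower). The limma fits on TPM gave 2763 calls with log2(TPM + 0.1), 2487 higher and 276 lower, and 2926 with log2(TPM + 1), 2644 higher and 282 lower. Upper quartile scaling gave 1336 higher and 567 lower. In these 3 settings the median over all genes shifted by 0.22, 0.15 and 0.09, which moved the balance of directions. Leaving out 1 female library gave 947 to 1647 calls, 455 to 877 higher and 491 to 808 lower, with the fewest in all without high fat library 4. Without high fat libraries 1 and 4 together there were 456 calls, 225 higher and 231 lower, of which 418 were also called with all libraries. DESeq2 gave 2322 calls in females. For the difference between the sexes, 100 genes became 337 with DESeq2, and 51 to 176 with 1 library left out. The causes were not tested, other than that fewer libraries were compared. No clear pairing by replicate number was seen: same-numbered libraries correlated in their deviations at 0.14, -0.09, -0.05 and -0.16, and only number 1 correlated best with its own. With 4 libraries per diet these correlations cannot decide whether the numbers pair libraries. With a replicate block the fit called 1864 genes, and in the 8 female libraries alone, an alternative chosen after seeing the data, 1095 (504 higher and 591 lower). Genes with few counts have wide errors, and values near 0.03 CPM rest on about 1 read.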
